A study of Mus musculus with 4 samples.

Results

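Haemoglobin and red cell genes were followed as 7 members: the alpha globin genes Hba-a1 and Hba-a2, the beta globin genes Hbb-bs and Hbb-bt, and Alas2, Slc4a1 and Bpgm, 3 other genes of red cell biology. The genes were given by name, with no threshold on measured values. Ensembl gene IDs were paired with mouse symbols, and all 7 members were found among the 40137 gene units of the deposited count tables. None was joined with a neighbouring gene in a shared unit. The RNA came from the thigh muscle of wild-type male C57BL/6J mice, an inbred strain, aged 28 months (3 libraries) or 18 months (1 library), with no treatment named. The sequencing accompanied exon array work on alternative splicing with age. The labels do not say whether the libraries came from separate or pooled animals, so p-values measured only the spread between these libraries. The extraction text describes keratinocytes of the skin, whereas the tissue label says muscle. The 13 listed muscle fibre genes summed to 118580 to 240792 CPM (counts scaled to a common library total). Of 10 listed keratinocyte genes, Krt5, Krt15 and Dsg3 had 0 counts in each library. Others were counted in each library: Trp63 969 to 1144 times, Krt10 55 to 109 times and Sfn 22 to 56 times. The rest of that list had 5 or fewer counts in any library.

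Adult haemoglobin is a tetramer of alpha and beta chains, each of which holds a haem group that binds oxygen. Red cells of mammals have no nucleus once mature, and the young red cells that have just left the marrow, the reticulocytes, still carry globin mRNA made in their nucleated precursors. Muscle holds blood in its vessels, so its RNA includes that of blood cells beside that of muscle fibres. Alas2 is the erythroid form of the first enzyme of haem synthesis. Slc4a1, known as the band 3 protein, exchanges chloride for bicarbonate across the red cell membrane and anchors its skeleton. Bpgm makes bisphosphoglycerate, which lowers the affinity of haemoglobin for oxygen.

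The globin copies are nearly the same sequence, which bears on how their counts can be read. Over the 426 coding bases of Hba-a1 and Hba-a2, 1 base differed (C381T, the Hba-a1 base first, counted from 1 at the first coding base), and the encoded chains of 142 residues were identical. Over the 441 coding bases of Hbb-bs and Hbb-bt, 1 base differed as well (C417T, the Hbb-bs base first), and the chains of 147 residues were identical. The 60 bases of exon 3 around each of these differences are shown on the coding strand, with the differing base in capitals, since they are the only coding letters that tell the copies apart. Hba-a1 was read at chr11:32284313-32284372 and Hba-a2 at chr11:32297130-32297189, both on the plus strand. Hbb-bs was read at chr7:103826668-103826727 and Hbb-bt at chr7:103812659-103812718, both on the minus strand of GRCm38.
Hba-a1: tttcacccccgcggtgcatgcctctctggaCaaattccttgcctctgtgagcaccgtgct
Hba-a2: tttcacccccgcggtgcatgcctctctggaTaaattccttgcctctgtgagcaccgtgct
Hbb-bs: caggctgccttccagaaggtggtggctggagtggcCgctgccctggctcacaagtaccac
Hbb-bt: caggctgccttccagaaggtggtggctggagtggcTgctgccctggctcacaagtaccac

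Because of this likeness, only part of each globin transcript can be assigned to 1 gene. Of all 50-base stretches of the Hba-a1 transcript, 32.5% occurred in no other annotated gene. The share was 13.1% for Hba-a2, 34.2% for Hbb-bs and 41.7% for Hbb-bt, against 100% for Alas2, Slc4a1 and Bpgm. The sources used here do not say how reads that fit several places were counted. The split between copies of a chain is therefore uncertain. A sum over both copies does not depend on that split, though it does depend on whether such reads were kept.

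The alpha genes lie on chromosome 11 at 32283511 to 32284465 (Hba-a1, ENSMUSG00000069919) and 32296489 to 32297298 (Hba-a2, ENSMUSG00000069917), both on the plus strand. The beta genes lie on the minus strand of chromosome 7 at 103826534 to 103828096 (Hbb-bs, ENSMUSG00000052305) and 103812524 to 103813996 (Hbb-bt, ENSMUSG00000073940). Alas2 (ENSMUSG00000025270) spans 150547375 to 150570638 on the plus strand of chromosome X. Slc4a1 (ENSMUSG00000006574) spans 102348824 to 102366203 on the minus strand of chromosome 11, and Bpgm (ENSMUSG00000038871) spans 34476207 to 34505613 on the plus strand of chromosome 6.

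Bin counts of each library summed to between 65780464 (18 months) and 76163175. The counter is not given in the sources used here, and a fragment may count in more than 1 bin. Levels are given below as CPM after scaling by the trimmed mean of M-values (TMM), which corrects library totals for the share taken by the most abundant genes. Of the 3 libraries at 28 months, replicate 3 stood apart for blood genes, so differences between the ages are given with and without it. Of 15376 gene units with a mean of at least 10 counts, 88 (0.572%) had a CPM in replicate 3 of at least 4 times that in every other library, a fold chosen after the values were seen. Among those 88 were 6 of the 7 members, 7 genes of the other red cell and minor globin lists, and 11 of the neutrophil list.

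The beta globin gene Hbb-bs was the most abundant member per kilobase of exon in each library. Its counts were 16363 in 28-month replicate 1, 9343 in replicate 2, 167378 in replicate 3 and 7884 in the 18-month library. As CPM these were 245, 95.8 and 2772 at 28 months (1038 ± 1504, SD, n = 3) and 121 at 18 months. Replicate 3 was 22.9-fold above the 18-month library and 11.3-fold above the next highest library, and the 18-month value lay between those of replicates 2 and 1. The fitted difference, 28 minus 18 months, was 3.10 ± 2.18 on the log2 scale (SE; edgeR quasi-likelihood test, Benjamini-Hochberg adjusted p = 0.859), and 0.49 without replicate 3.

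Hbb-bt, the other adult beta gene, had CPM of 27.9, 16.5 and 282 in the 28-month replicates (109 ± 150, SD, n = 3) and 21.02 at 18 months. Again replicate 3 alone was high, 13.4-fold above the 18-month library, and the groups overlapped. The fitted log2 difference was 2.37 ± 1.86 (SE; edgeR adjusted p = 0.868), and 0.08 without replicate 3.

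Hba-a1 was the more counted alpha gene, with CPM of 72.4, 17.4 and 500.4 at 28 months (197 ± 264, SD, n = 3) and 22.7 at 18 months. Replicate 3 was 22.0-fold and replicate 1 was 3.19-fold above the 18-month library, whereas replicate 2 was below it. The log2 difference was 3.11 ± 2.04 (SE; edgeR adjusted p = 0.859), and 0.98 without replicate 3.

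Hba-a2 had CPM of 7.14, 3.87 and 63.5 at 28 months (24.8 ± 33.5, SD, n = 3) and 8.29 at 18 months. Only replicate 3 lay above the 18-month library, by 7.65-fold, and the other 28-month replicates lay below it. The log2 difference was 1.58 ± 1.71 (SE; edgeR adjusted p = 0.896) and turned to -0.59 without replicate 3.

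Alas2, whose enzyme starts haem synthesis in erythroid cells, was counted 1677, 1076 and 10067 times at 28 months and 612 times in the 18-month library. Its CPM were 25.1, 11.03 and 167 (67.6 ± 86.1, SD, n = 3) against 9.40, so that all 3 replicates lay above the 18-month library. Replicate 3 was 17.7-fold above it, and replicate 2 was 1.17-fold above it. The log2 difference was 2.85 ± 1.75 (SE; edgeR adjusted p = 0.859), and 0.94 without replicate 3. By TMM-scaled CPM, Alas2 was the only member whose 18-month value lay below all 3 values at 28 months, an arrangement seen in 25.4% of all tested units. For Hbb-bs and Hbb-bt, replicate 2 was 0.791 and 0.783 times the 18-month level, and their order depends on the scaling. For Hba-a1, replicate 2 was 0.766 times that level after scaling and nearly equal to it by plain totals. Hba-a2 was lower in replicate 2 either way (0.466 times after scaling).

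Slc4a1 was near the limit of detection outside replicate 3. It had 16 and 10 counts in replicates 1 and 2, 824 in replicate 3 and 9 at 18 months, or 0.240, 0.103, 13.6 and 0.138 CPM (4.66 ± 7.78 at 28 months, SD, n = 3). Replicate 3 was 98.8-fold above the 18-month library and 57.0-fold above replicate 1, the highest ratios of any member. The log2 difference was 5.05 ± 3.54 (SE; edgeR adjusted p = 0.859), and 0.29 without replicate 3. The counts of replicate 3 were spread over the gene: 30.8% (95% exact interval 27.7 to 34.1) fell in the 1544-base bin at its 3′ end, chr11:102348824-102350367. In the 18-month library all 9 counts fell in that bin.

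Bpgm did not follow the other members. Its CPM were 118, 75.4 and 127 at 28 months (107 ± 27.6, SD, n = 3) and 139 at 18 months, with 7359 to 9073 counts in every library. The 18-month library was the highest, as in 26.4% of all tested units, and replicate 3 was 0.912 times its level. The log2 difference was -0.38 ± 0.38 (SE; edgeR adjusted p = 0.890), and -0.52 without replicate 3.

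**Figure D1:**
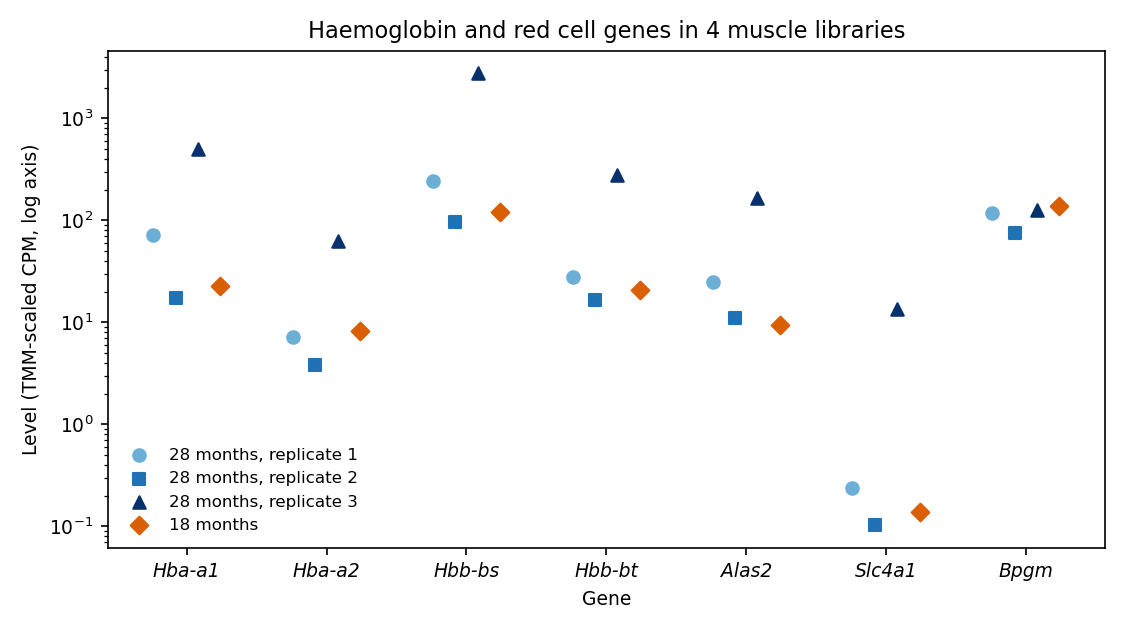
TMM-scaled CPM (log axis) of the 7 members in each of the 4 libraries, 1 symbol per library. Replicate 3 at 28 months (dark triangles) is the highest of the 4 for all members but Bpgm, whose values run from 75.4 to 139 CPM.

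None of the 7 members passed an adjusted p of 0.05 in the edgeR test, and none had an unadjusted p under 0.05. Over all 15376 tested units 0 passed (0%), and 753 (4.9%) had an unadjusted p under 0.05, so the members did not stand out by the test. The DESeq2 Wald test called 34 units and limma voom 0, with no member among them. The members' median log2 difference was 2.85 with 6 positive and 1 negative, against a median of 0.06 over all units, and it was 0.29 without replicate 3. The SE of each globin difference was 1.71 or more, which reflects the spread between the 28-month replicates. In tissue RNA, a higher number of red cells in the sample and more of these transcripts per cell cannot be told apart.

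Compared per kilobase of exon, the order of the members differed between libraries. At 18 months the CPM per kilobase was 158 for Hbb-bs, 38.8 for Bpgm, 29.9 for Hbb-bt, 28.0 for Hba-a1, 12.4 for Hba-a2, 3.91 for Alas2 and 0.0283 for Slc4a1. In replicate 3 the order was Hbb-bs (3610), Hba-a1 (616), Hbb-bt (401), Hba-a2 (95.1), Alas2 (69.4), Bpgm (35.4) and Slc4a1 (2.79). Bpgm thus came directly after Hbb-bs at 18 months and after Alas2 in replicate 3, with nearly the same level per kilobase in both. Hbb-bt, Hba-a1 and Bpgm lay within 21.03 to 23.4 CPM per kilobase in replicate 2 and changed places between libraries, so their order is not resolved. Hbb-bs was the highest and Slc4a1 the lowest in each of the 4 libraries.

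The 4 adult globin genes together took 0.0309% of counts in replicate 1, 0.0171% in replicate 2, 0.325% in replicate 3 and 0.0171% at 18 months (95% exact interval 0.0168 to 0.0175%). Exact intervals here and below cover counting error only. Summed globin CPM were 352, 134 and 3618 at 28 months (1368 ± 1952, SD, n = 3) and 173 at 18 months. Replicate 1 was 2.04-fold, replicate 2 was 0.771-fold and replicate 3 was 20.9-fold the 18-month value. The lower CPM of replicate 2 came from the TMM scaling (factor 1.28, against 0.990 at 18 months), as the share of counts was 0.0171% in both. By CPM, the replicates of the same age differed by 27.1-fold between the lowest and the highest, more than any of them differed from the 18-month library.

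The ratio of alpha to beta chains moved little while the sum moved over that range. Alpha counts were 0.292, 0.190 and 0.185 times the beta counts at 28 months and 0.218 times at 18 months. The level of these ratios depends on the bins and on whether reads that fit several places were kept. They are therefore not ratios of mRNA. As a share of adult globin counts, alpha made up 22.6% (22.1 to 23.1), 15.9% (15.3 to 16.6) and 15.6% (15.4 to 15.7) at 28 months and 17.9% (17.2 to 18.6) at 18 months, with 95% exact intervals. The 18-month share lay inside the range of the 28-month replicates, and the log2 difference of the ratio was -0.01, or 0.11 without replicate 3. The library with the most globin counts, replicate 3, and the one with the fewest CPM, replicate 2, had nearly the same ratio, and replicate 1 had the highest. With 1 library against 3 the smallest p of an exact permutation test is 0.25, so the ratios were not tested.

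Within the alpha pair, Hba-a2 made up 8.97% (95% exact interval 8.22 to 9.77), 18.2% (16.5 to 19.9) and 11.3% (10.9 to 11.6) of alpha counts at 28 months. At 18 months its share was 26.7% (24.8 to 28.7), above all 3 replicates. On the log2 scale the ratio of Hba-a2 to Hba-a1 was 1.38 lower at 28 months (log2 difference -1.38), and it stayed between -1.71 and -1.12 when any 1 replicate was left out (-1.30 without replicate 3). Using the single most counted bin of each gene gave ratios of 0.124, 0.277 and 0.163 at 28 months and 0.404 at 18 months, in the same order.

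Within the beta pair, Hbb-bt made up 10.2% (95% exact interval 9.78 to 10.7), 14.7% (14.0 to 15.3) and 9.22% (9.09 to 9.35) of beta counts at 28 months and 14.8% (14.1 to 15.5) at 18 months. The 18-month share was matched by replicate 2 within counting error, and replicates 1 and 3 were lower. The log2 difference of the ratio was -0.47, or -0.31 without replicate 3. In both pairs replicates 1 and 3 had the lower shares of the less counted copy, and replicate 2 and the 18-month library the higher ones. These were also the libraries with the higher and the lower summed globin CPM, respectively. Whether reads that fit both copies were placed alike in all libraries was not tested.

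**Figure D2:**
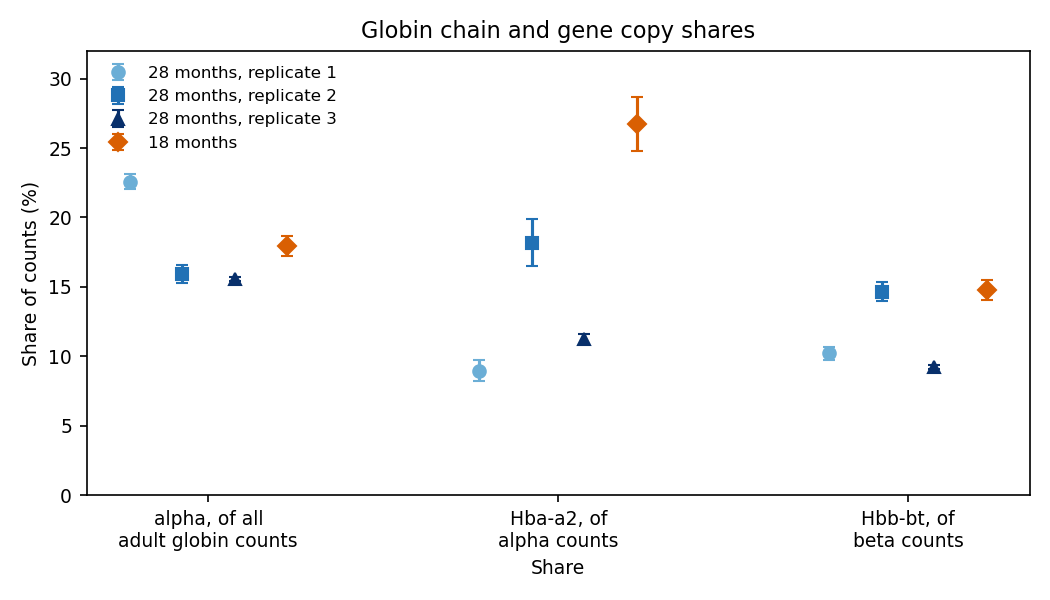
Share of counts (%) of both alpha genes among all adult globin counts, of Hba-a2 among alpha counts and of Hbb-bt among beta counts, 1 symbol per library with 95% exact intervals. The alpha share at 18 months (17.9%) lies among the 28-month replicates, and the Hba-a2 share (26.7%) lies above them.

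Set against the globins themselves, the other members did not keep a fixed ratio. Alas2 had 71.2, 82.6 and 46.1 counts per 1000 adult globin counts at 28 months and 54.3 at 18 months, a narrow range beside the 27.1-fold range of the globins. Slc4a1 had 0.680, 0.768 and 3.77 counts per 1000 globin counts at 28 months and 0.798 at 18 months, so that replicate 3 held more Slc4a1 per globin than the other libraries did. Bpgm ran the other way, with 336, 565 and 35.1 counts per 1000 globin counts at 28 months and 805 at 18 months, as its own level hardly moved.

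Use of exonic bins within each gene was then compared between ages, since alternative splicing was the purpose of the sequencing. Of the 7 members, 1 (Bpgm) passed in the edgeR exon usage test (Simes adjusted p = 0.0343), beside 389 of 11000 tested genes (3.54%). The other members had adjusted p of 1.00 in that test. The Bpgm difference lay in bin 11, 1133 bases placed at chr6:34487951-34489083 on GRCm38, directly after bin 10. It was counted 4, 5 and 0 times at 28 months and 48 times in the 18-month library.

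As a share of Bpgm counts, bin 11 made up 0.0506%, 0.0679% and 0% (an upper limit of 0.0391%) at 28 months (0.0395 ± 0.0353%, SD, n = 3) and 0.529% (95% exact interval 0.390 to 0.701) at 18 months. The log2 difference in its use was -2.63 (edgeR, adjusted p = 0.0384 over 143485 bins). The call of this bin was lost without replicate 1 (log2 difference -2.83, edgeR adjusted p = 0.311) and without replicate 3 (-2.20, 0.452), and it held without replicate 2 (-2.97, 0.00195). With 48 counts in 1 library behind it, the difference rests on the single 18-month library. The other 7 tested bins of Bpgm did not pass. Bin 2, near the 5′ end, took 5.92, 5.20 and 4.68% at 28 months and 2.81% (95% exact interval 2.48 to 3.17) at 18 months, a log2 difference of 0.63 (edgeR adjusted p = 1.00, or 0.0525 without replicate 2). The last exon, bin 12, took 32.3, 33.8 and 36.5% at 28 months and 38.4% at 18 months.

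Some bins of the globin genes and Alas2 also differed in share at 18 months, without passing the test. Bin 3 of Hba-a1, its second coding exon, held 37.3, 36.3 and 35.8% of the gene's counts at 28 months and 24.3% (95% exact interval 22.1 to 26.6) at 18 months. Bin 5, the last 27 bases of the gene, held 10.3, 10.2 and 10.02% against 18.1% (16.2 to 20.2). The 28-month replicates thus lay close together although their Hba-a1 levels differed by over an order of magnitude. The matching 205-base bin of Hba-a2 was counted only 20, 55 and 100 times at 28 months and 55 times in the 18-month library, far from the 360 to 10818 counts in that of Hba-a1. The 2 copies have the same sequence in this coding exon, as their only coding difference lies in exon 3. Reads that lie within it fit both genes, so how its counts divide between them is uncertain.

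Alas2 had no counts in its first 2 bins, chrX:150547375-150547485, at 18 months, where the 28-month replicates had 30, 34 and 146. For the second of them, the 18-month count of 0 allows a share of up to 0.490%, below the 1.32 to 2.42% at 28 months. Bin 5 of Hbb-bs, which could not be placed because the annotation used here has another number of bins for that gene, was counted 56, 19 and 659 times at 28 months and 0 times in the 18-month library. These differences had no adjusted p under 0.05 and are given as values.

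**Figure D3:**
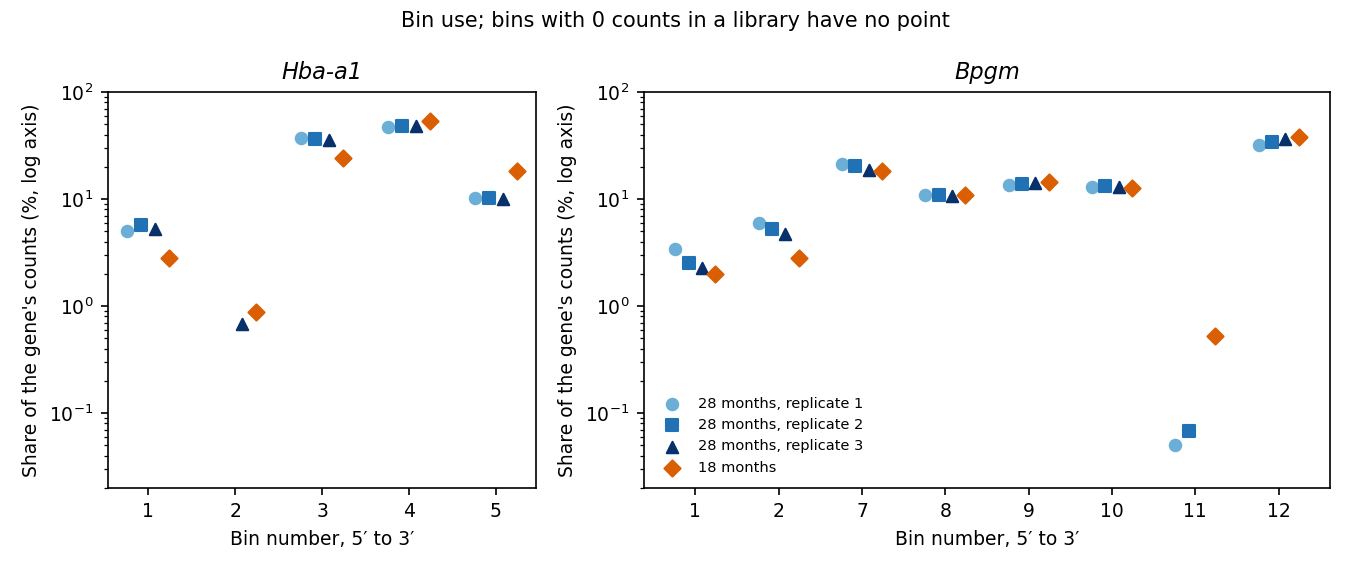
Share of the gene's counts (%, log axis) in each counted bin of Hba-a1 and Bpgm, from the 5′ to the 3′ end, 1 symbol per library. In Hba-a1, bins 3 and 5 of the 18-month library (orange diamonds) stand away from 3 replicates that lie together, and in Bpgm bin 11 stands at 0.529% in the 18-month library.

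Promoters of 6 members were matched in RefSeq (windows of 300 bases on GRCm38.p6, from 250 before to 50 after each start). They were searched on both strands for 4 short motifs, none of which contains another. The GATA motif GATAAG was present in the windows of all 4 globin genes and in neither Alas2 nor Bpgm, beside 7.44% of 32851 promoters. CACCC was present in 5 of 6 (all but Bpgm) beside 57.5% of promoters, CCAAT in 5 of 6 (all but Alas2) beside 37.4%, and TATAAA in Hbb-bt and Alas2 beside 13.6%. Stretches of 1 alpha and 1 beta promoter are shown because they hold CCAAT and, for Hba-a2, CACCC (in capitals) just before the start of a transcript. Whether these motifs bear on the levels or the ratio of the chains was not tested. The Hba-a2 stretch is chr11:32296379-32296488 on the plus strand, directly before the gene. The Hbb-bs stretch is chr7:103827929-103828008 on the minus strand, directly before the transcript Hbb-bs-201 and inside the span of the gene, since another annotated transcript starts further upstream.
Hba-a2: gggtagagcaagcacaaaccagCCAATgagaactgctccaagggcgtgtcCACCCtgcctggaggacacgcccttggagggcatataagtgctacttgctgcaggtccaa
Hbb-bs: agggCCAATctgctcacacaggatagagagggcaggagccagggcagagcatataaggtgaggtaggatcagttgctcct

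Other genes of haemoglobin and red cell biology were read from lists. Of 8 embryonic and minor globin genes, Hba-x, Hbb-bh0, Hbb-bh1, Hbb-bh2 and Hbb-bh3 had 0 counts in each library, and Hbb-y had 1 count in all. Hbq1b, a minor alpha-like globin, was counted 3, 0 and 38 times at 28 months and not in the 18-month library. Globin counts in these libraries were thus nearly all of adult type. Myoglobin (Mb), the oxygen store of muscle fibres, had CPM of 1594, 1069 and 1204 at 28 months and 2250 at 18 months, so that the 18-month library was the highest and replicate 3 did not stand out.

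The other 8 enzymes of haem synthesis did not share the pattern of Alas2. Replicate 3 was the highest library for 0 of them, where it was the highest for 15.97% of all tested units, and none passed the test. Fech, which inserts iron into the haem ring, had CPM of 247, 144 and 223 at 28 months and 202 at 18 months, and Alas1, the form of the first enzyme used in other tissues, had 7642, 11776 and 5948 counts against 6574. Their median log2 difference was 0.50, and 0.47 without replicate 3, with 7 positive and 1 negative.

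Genes of the red cell membrane and its skeleton divided. Of 12 tested, none passed, 9 had positive differences and 3 negative ones, and the median log2 difference was 0.52. It remained 0.52 with the 4 genes at 0 counts at 18 months placed at their lower bound, and it was -0.02 by that measure without replicate 3. The most abundant of them, Ank1 (807, 377 and 648 CPM at 28 months, 539 at 18 months), Tmod1, Sptb and Epb41, which muscle fibres also make, did not stand out in replicate 3. By contrast 5 genes (Epb42, Rhag, Rhd, Kel and Ermap), named after their values were seen, were at least 4 times as high in replicate 3 as in every other library. Rhd, of the Rh complex of the red cell membrane, had 0, 0 and 86 counts at 28 months against 0 in the 18-month library.

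Of 20 tested genes known in reticulocytes and late erythroid cells, replicate 3 was the highest library for 14, beside 15.97% of all tested units. None of the 20 passed. Their median log2 difference was 0.46 with the 1 gene at 0 counts at 18 months placed at its bound or not, and -0.05 by the bound without replicate 3. The most abundant, Fech, Prdx2, Tfrc and Xpo7, were at similar levels in all libraries, as in Prdx2 with 149, 105 and 151 CPM at 28 months and 135 at 18 months. Hemgn, a nuclear protein of erythroid precursors, had 0, 0 and 83 counts against 0 and was named after its values were seen. Erythroid transcription factors differed widely in level. The most abundant, Ldb1, was counted 1601, 2590 and 1231 times in the 28-month replicates and 863 times in the 18-month library. Lmo2 had 457, 969 and 494 counts against 584. By contrast Gata1 had 2, 8 and 19 counts against 1, and Klf1 had 4, 0 and 8 against 2 (also chosen after their values were seen). Gata1 and Klf1 had too few counts to be tested. None of 6 tested factors passed, and their median was 0.72, or 0.30 without replicate 3.

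Relatives of Slc4a1 and Bpgm showed no such peak in replicate 3: for 0 of 7 was it the highest library, beside 15.97% of all tested units. The median log2 difference of the 7 was -0.02, or -0.05 without replicate 3. Pgam2, the muscle phosphoglycerate mutase, had 896, 670 and 780 CPM at 28 months and 1006 at 18 months. Genes that clear haemoglobin and haem had a median of 0.52 with and without replicate 3 (7 positive and 1 negative of 8, none passing). Hp, which binds free haemoglobin, was counted 8065, 21604 and 7078 times at 28 months and 3591 times at 18 months, so that all replicates lay above the 18-month library, also as CPM. Cd163, the receptor that takes up haptoglobin with haemoglobin, had 8.77, 28.2 and 31.7 CPM against 8.45 and was chosen after its values were seen. Of 12 genes of iron handling, 6 were positive and 6 negative with a median of -0.01 (0.02 without replicate 3), and ferritin heavy chain (Fth1) had 1981, 1332 and 1786 CPM against 1593.

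Among markers of other blood cells, those of neutrophils shared the peak of replicate 3 with most members. The 16 neutrophil markers summed to 18.4, 25.7 and 444 CPM at 28 months and 9.20 at 18 months. Replicate 3 was the highest library for 14 of the 15 tested, beside 15.97% of all tested units. Outside replicate 3, the sum of these markers was higher in replicate 2 than in replicate 1, which rested on Mmp9. Mmp9, named after its values were seen, had 1.86 CPM in replicate 1 and 9.75 in replicate 2. The other markers divided. S100a9 was higher in replicate 2, whereas Lcn2 (3.79 and 0.892 CPM) and Ngp were higher in replicate 1, as the globins were. The median log2 difference of the neutrophil markers was 4.06, unchanged with the 2 genes at 0 counts at 18 months placed at their bound. It was 0.61 by that measure without replicate 3. S100a9, a calcium-binding protein of neutrophils, had 4.18, 5.70 and 160 CPM against 1.63. Mpo and Ngp are made mainly in marrow precursors: Mpo had 8, 6 and 547 counts against 0, so that replicate 3 was at least 197-fold above a limit of 3 counts in the 18-month library, and Ngp had 87, 0 and 2570 counts against 10. The part of marrow or blood cells in the levels of the members was not tested.

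Of 12 lymphocyte markers, replicate 3 was the highest library for 0, beside 15.97% of all tested units. The lymphocyte markers summed to 9.24, 8.81 and 6.61 CPM at 28 months and 12.1 at 18 months. Their median log2 difference was -0.46, or -0.25 without replicate 3. Platelet markers summed to 17.9, 21.3 and 24.8 CPM against 13.3, with 4 of 10 tested and a median of 0.70, or 0.00 without replicate 3. Replicate 3 was the highest library for 3 of those 4, beside 15.97% of all tested units. The 11 macrophage markers summed to 240, 353 and 406 CPM against 183, with medians of 1.26 and, without replicate 3, 1.00. The 18-month library lay below every replicate for all 11, beside 25.4% of all tested units. Replicate 3 was the highest library for 7 of the 11, beside 15.97% of all tested units. Endothelial markers summed to 315, 556 and 372 CPM against 354, with a median of 0.25, or 0.36 without replicate 3, so that the library with the most vessel marker counts was replicate 2, which had the fewest globin CPM. None of these genes passed the test.

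**Figure D4:**
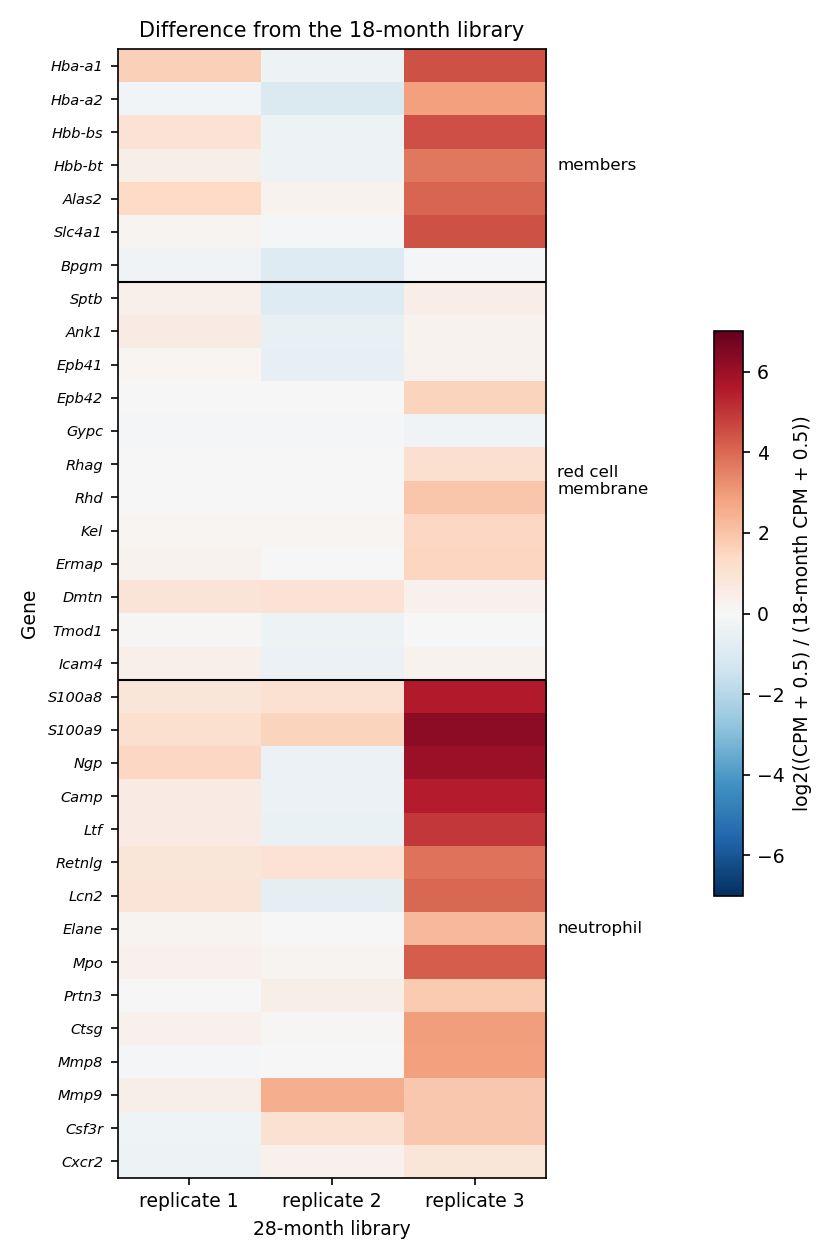
Difference of each 28-month library from the 18-month library, as log2 of the ratio of CPM + 0.5, for the 7 members, 12 red cell membrane genes and 15 neutrophil markers. Replicate 3 is red for 6 members and for most neutrophil markers, and pale for Bpgm, Sptb, Ank1, Epb41 and Tmod1.

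Profiles over the 4 libraries were compared with that of the summed adult globins, by the Euclidean distance between log2(CPM + 0.5) values centred on their mean. The members themselves lay at 0.111 (Hbb-bs) to 1.16 (Hba-a2), except for Bpgm at 3.52. The globin members are part of that sum, and Hbb-bs supplies most of it, so their distances are small in part by construction. Among the 8 nearest other genes of 13679 were Lcn2 (0.298), Ltf (0.722), Mpo (0.892), Saa3 (0.981), Slpi, which shares its unit with Mir7678 (0.992), and Prg2 (1.10). Lcn2, at 3.79, 0.892 and 36.5 CPM at 28 months and 1.77 at 18 months, lay nearer to the globin sum than did Hba-a1 (0.531). The distance is taken over 4 libraries, of which 1 stands apart, so that a high value in replicate 3 is largely what brings a gene near. The added 0.5 shrinks the differences of genes at low CPM. Mpo thus came out near although its replicate 3 value was 75.6-fold above the next highest library.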

How the data were processed

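The submitters' processing notes name bcl2fastq 1.8.3, TopHat2 2.0.4 and the build GRCm38. The deposited values are unnormalized counts for each exonic bin. The counter, its annotation release, its treatment of reads that fit several places and its strand setting are not given in the sources used here, so reads of overlapping antisense genes cannot be told apart. Bin names look like those of DEXSeq's counter, where a fragment adds 1 count to every bin it spans. Special entries that name no gene (3.36 to 5.20% of all counts) were left out.

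The 374286 bins were summed into 40137 gene units, of which 949 join several genes. Of the gene IDs, 97.3% had a symbol. Unit sums with a mean of at least 10 counts over the 4 libraries were tested with edgeR 4.0.16 (quasi-likelihood test, TMM scaling), and exon usage with edgeR diffSpliceDGE (Simes) on bins with a mean of at least 10 counts. P-values were adjusted by Benjamini-Hochberg over the whole table and called under 0.05. With 2 residual degrees of freedom, all from 28 months, the 18-month library was assumed to vary like those. DESeq2 1.42.0, limma 3.58.1, other scalings and filters and leaving out each 28-month replicate were alternatives. On simulated data the expression test (15376 units) recovered 2, 28, 80 and 98% of changes of log2 1, 2, 3 and 4, and the exon usage test (3000 genes) 2, 46, 94 and 98%. False calls were 7 and 3. The expression changes were planted in well-counted units drawn from all, so these shares do not hold for members with a wide spread between replicates. The exon usage simulation used a set spread, not that of the data. R 4.3.3, Python 3.11.15, numpy 2.4.6, pandas 2.3.3, scipy 1.17.1 and matplotlib 3.10.9 were used.

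Coordinates and coding sequences came from GENCODE M21 on GRCm38. Bins were placed only for the 6 members that had as many bins as the flattened annotation, which is no proof of their place. Members and lists were chosen with earlier results of these data known. Named were all members, up to 4 genes of a list with the highest mean CPM, list genes at 0 counts, and the 8 genes nearest to the globin profile, and other genes are said to be chosen after their values were seen. Listed symbols without a row (Ahsp, Tf and the alternative names Fam46c and Hjv) were not analysed here, and Gclm, Ftl1, Gp1bb and Egfl7 share their unit with another gene. Fech is in 2 lists. A few genes are not reported here and were left out of the lists.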

Additional observations from a re-analysis of the deposited data

How the results depend on the processing

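None of the 7 members was called for expression under any of the 9 alternatives, including the fits without 1 of the 28-month replicates. Those fits called 2, 1806 and 1 of all units without replicates 1, 2 and 3, against 0 with all libraries, and the lowest adjusted p of a member was 0.0881, without replicate 2 (edgeR). Unadjusted p-values under 0.05 were found for 5 members without replicate 1, 3 without replicate 2 and 0 without replicate 3. The sign of each member's log2 difference held under all alternatives except that of Hba-a2, which turned to -0.59 without replicate 3 and reached 2.13 without replicate 2. The log2 ratio of summed globin CPM (28-month mean over 18 months) was 2.98, between 2.79 and 2.98 under other scalings and bins, and between 0.49 and 3.52 when 1 replicate was left out, the lowest without replicate 3. The log2 differences of the alpha to beta, Hba-a2 to Hba-a1 and Hbb-bt to Hbb-bs ratios moved by less than the spread between replicates. For exon usage, between 0 and 1 members were called when 1 replicate was left out, with Bpgm lost without replicate 1 (adjusted p = 0.289) or replicate 3 (adjusted p = 0.422). The gene F-test called 3375 genes in all where the Simes test called 389, Bpgm among them (adjusted p = 0.0309), and leaving out replicates 1, 2 and 3 gave 226, 3299 and 164 genes. The fits without a replicate took their spread from the remaining pair. No paired analysis was possible because the 18-month group has 1 library. Depth was not the limit for the globins, with 377 or more counts per gene and library, but it was for Slc4a1, with 9 to 16 counts outside replicate 3.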
